A study of Arabidopsis thaliana with 12 samples.

Results

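The GASA genes of Arabidopsis thaliana encode small secreted peptides, and 9 of them were followed across guard cells and leaves treated with the stress hormone abscisic acid (ABA). The 9 loci were chosen by name from a table of 36796 loci, as family members that move in opposite directions with ABA in these data. Their ABA responses therefore describe the choice and carry no test here. Of the 9 loci, 8 passed the filter on low counts and stood among the 22341 loci tested. GASA5 did not pass, and GASA2 and GASA3 passed only through ABA-treated guard cells and ABA-treated wild-type leaves. GASA10 was highest in ABA-treated guard cells, but its 14 and 30 counts in ABA-treated wild-type leaves also met the filter.

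All plants were of accession Col-0, 5 to 6 weeks old, sprayed with 50 µM ABA or with the ethanol vehicle, and RNA was taken 4 h later. The 6 groups, with 2 biological replicates each, were guard cells of wild-type plants with ABA, guard cells of wild-type plants with vehicle, leaves of the abf1/2/3/4 mutant with ABA, leaves of the mutant with vehicle, wild-type (WT) leaves with ABA and WT leaves with vehicle. The guard cell samples were isolated epidermal fragments, and their RNA was purified with another kit than the leaf RNA, so cell type, isolation and kit cannot be told apart. ABF1, ABF2, ABF3 and ABF4 encode bZIP transcription factors that act in ABA signalling. Reads of all 4 remained in untreated mutant leaves, with log2 fold changes against untreated WT leaves of -0.84 for ABF1, -1.13 for ABF2, -2.80 for ABF3 and -3.70 for ABF4. Library totals ran from 25294558 to 47116819 counts.

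The GASA family takes its name from a tomato gene induced by gibberellin, the growth hormone that ABA often opposes. Its peptides carry a signal for secretion and a conserved cysteine-rich end, and members are known from germination, cell elongation, flowering and stress responses. ABF factors bind promoter elements with an ACGTG core, known as ABA response elements, and in plants lacking all 4 factors much of the leaf ABA response is known to be reduced. In the RefSeq annotation of TAIR10.1, each of the 9 loci had 12 cysteine codons among its last 60 codons. Coding regions held 89 to 119 codons in the other members and 275 in GASA14.

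GASA3 and GASA2 lie next to each other on the minus strand of chromosome 4 and had the same on and off pattern, so their last coding exons are shown to let the resemblance be read. These exons lie at chr4:6073014-6073195 for GASA3 and chr4:6074927-6075108 for GASA2 (TAIR10.1, RefSeq), and capitals mark the bases that differ between them.
GASA3: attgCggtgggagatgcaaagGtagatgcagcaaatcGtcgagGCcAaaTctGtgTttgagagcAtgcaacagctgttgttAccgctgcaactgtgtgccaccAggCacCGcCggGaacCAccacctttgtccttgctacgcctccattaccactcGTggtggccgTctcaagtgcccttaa
GASA2: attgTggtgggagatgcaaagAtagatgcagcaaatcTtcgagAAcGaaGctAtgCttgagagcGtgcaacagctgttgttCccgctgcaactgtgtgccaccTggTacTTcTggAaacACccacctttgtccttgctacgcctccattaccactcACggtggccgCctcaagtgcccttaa
The exons of 182 bases differed at 22 positions and were 87.9% identical. Over the whole coding region of 300 bases, 42 positions differed, identity was 86.0% and the longest identical run was 35 bases. No stretch of 50 bases in the exons of either locus occurred in the other, so a read of that length matching without error would differ between them.

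The 250 bases upstream of the annotated start are shown for GASA3 and GASA2, which had reads only in ABA-treated libraries, and for GASA4 and GASA9, which were far lower with ABA. They lie at chr4:6073647-6073896 on the minus strand for GASA3, chr4:6075646-6075895 on the minus strand for GASA2, chr5:4944566-4944815 on the plus strand for GASA4 and chr1:8026876-8027125 on the plus strand for GASA9 (TAIR10.1). Capitals mark the ACGTG core, written CACGT where it lies on the other strand.
GASA3: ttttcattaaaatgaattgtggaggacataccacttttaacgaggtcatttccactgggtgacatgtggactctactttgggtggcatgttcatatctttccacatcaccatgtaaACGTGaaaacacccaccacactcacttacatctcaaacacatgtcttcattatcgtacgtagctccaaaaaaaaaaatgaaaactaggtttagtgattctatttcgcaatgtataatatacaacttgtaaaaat
GASA2: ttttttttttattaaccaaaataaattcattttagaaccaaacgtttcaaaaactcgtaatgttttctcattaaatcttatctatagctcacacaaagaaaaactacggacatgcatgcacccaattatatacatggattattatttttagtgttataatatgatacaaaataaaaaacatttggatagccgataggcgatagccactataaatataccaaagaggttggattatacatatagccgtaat
GASA4: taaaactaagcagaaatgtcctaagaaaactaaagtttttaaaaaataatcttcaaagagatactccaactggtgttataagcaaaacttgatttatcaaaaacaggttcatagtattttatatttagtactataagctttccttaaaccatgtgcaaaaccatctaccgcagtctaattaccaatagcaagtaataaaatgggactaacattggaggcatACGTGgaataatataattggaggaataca
GASA9: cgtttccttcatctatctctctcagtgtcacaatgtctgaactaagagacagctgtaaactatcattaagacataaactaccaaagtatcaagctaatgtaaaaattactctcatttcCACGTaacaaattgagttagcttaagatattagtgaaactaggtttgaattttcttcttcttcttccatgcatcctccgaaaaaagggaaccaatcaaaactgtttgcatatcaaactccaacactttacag
On either strand, ACGTG stood in the windows of GASA3, GASA4, GASA5 and GASA9, starting at -134, -29, -30 and -132 relative to the annotated start. It was absent from the windows of GASA1, GASA2, GASA6, GASA10 and GASA14, and 22.9% of 27443 promoters of this length held it. The core was thus in the window of GASA3 and not of its neighbour, and in windows of members both higher and lower with ABA. The palindrome CACGTG, which contains ACGTG and stood in 6.49% of all promoters, was in none of the 9. TAACAAA, a gibberellin response element, stood in the window of GASA9, where it shares a base with CACGT, and in 16.1% of all promoters. TAAAG, a core tied to guard cell genes, stood in the windows of GASA1, GASA4, GASA9 and GASA14 and in 58.8% of all promoters. A match describes these letters and is not a binding site.

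With ABA, 3 members were called higher and 4 lower in guard cells, where 57.5% of all tested loci were called, 29.0% higher and 28.5% lower. In mutant leaves, 1 member was higher and 3 were lower, where 34.4% of all loci were called, 18.9% higher and 15.5% lower. In WT leaves, 3 were higher and 5 lower, where 61.1% of all loci were called, 27.5% higher and 33.7% lower. A locus was called at an adjusted p under 0.05 in edgeR's quasi-likelihood test. With loci at or under 3 counts in a group set to their bound, the median log2 change of the members was -0.53 in guard cells over 8 loci, -0.54 in mutant leaves over 6 loci and -1.65 in WT leaves over 8 loci. The median of all loci was -0.02 in guard cells, 0.01 in mutant leaves and -0.08 in WT leaves. The higher calls in guard cells and WT leaves include GASA2 and GASA3, which passed the filter only through those ABA-treated groups. Since the members were picked for these responses, the calls test nothing, and nothing about the family as a whole is read from the counts.

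GASA9 (AT1G22690), also named GC1, is the gene whose promoter is widely used to drive expression in guard cells. It had 27.2 and 32.0 cpm (counts scaled to library size) in guard cells with ABA, against 640.2 and 574.4 cpm in guard cells with vehicle. Mutant leaves had 10.07 and 8.20 cpm with ABA, against 43.0 and 42.0 cpm with vehicle. WT leaves had 6.34 and 5.57 cpm with ABA, against 45.5 and 52.8 cpm with vehicle. The groups did not overlap in any pair, though untreated mutant and WT leaves lay close and their difference, at -0.21 ± 0.11, was not called. ABA-treated guard cells held less GASA9 than untreated leaves of either genotype. The log2 fold change with ABA was -4.36 ± 0.13 (SE) in guard cells, -2.20 ± 0.13 in mutant leaves and -3.05 ± 0.13 in WT leaves.

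GASA4 (AT5G15230), a gibberellin-induced member known from flowering and seed development, had 15.4 and 19.5 cpm in guard cells with ABA, against 363.1 and 321.2 cpm in guard cells with vehicle. In mutant leaves it had 16.6 and 15.7 cpm with ABA, against 36.9 and 40.0 cpm with vehicle. In WT leaves it had 3.77 and 2.75 cpm with ABA, against 50.6 and 74.2 cpm with vehicle. All ABA libraries lay below the vehicle libraries of their own tissue, and the ABA levels of guard cells and mutant leaves overlapped. The log2 fold change was -4.30 ± 0.19 in guard cells, -1.25 ± 0.18 in mutant leaves and -4.28 ± 0.21 in WT leaves.

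GASA6 (AT1G74670), known to promote germination through cell elongation, had 2.15 and 2.52 cpm in guard cells with ABA, against 31.3 and 24.7 cpm in guard cells with vehicle. Mutant leaves had 16.4 and 8.72 cpm with ABA, against 23.9 and 24.5 cpm with vehicle. WT leaves had 1.07 and 0.389 cpm with ABA, from 30 and 16 counts, against 46.8 and 63.0 cpm with vehicle. It was lower with ABA in every tissue, and its ABA level in mutant leaves was 17.3 times that in WT leaves. The log2 fold change was -3.58 ± 0.34 in guard cells, -0.91 ± 0.27 in mutant leaves and -6.34 ± 0.39 in WT leaves. The mutant call ended without the second ABA library, at -0.55, in a fit of the compared libraries alone, at -0.98, and with DESeq2, at -0.95. Of the exon bases of GASA6, 22.6% lie in AT1G74675 on the opposite strand, and whether counting used strand is not given in the sources used here. AT1G74675 itself had 20 and 22 counts in guard cells with ABA, against 251 and 270 with vehicle. It had 86 and 16 counts in mutant leaves with ABA, against 83 and 75 with vehicle, and 11 and 4 counts in WT leaves with ABA, against 444 and 612 with vehicle. Reads of both loci therefore moved alike, and the share of each was not tested.

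GASA3 (AT4G09600), known as a transcript of seeds, had 26.4 and 30.0 cpm in guard cells with ABA, from 714 and 762 counts, against 0 counts in both guard cell libraries with vehicle. WT leaves with ABA had 3.17 and 3.09 cpm, from 89 and 127 counts, against 0 counts in both WT leaf libraries with vehicle. Mutant leaves had 0 counts in all 4 libraries, with ABA and with vehicle. It was read in ABA-treated guard cells and ABA-treated WT leaves only, among the 6 groups. Set against a floor of 3 counts per library, the level was at least 328-fold higher with ABA in guard cells and at least 39.7-fold higher in WT leaves. Among ABA-treated samples it was 9.03 times as high in guard cells as in WT leaves, and WT leaves were at least 32.6-fold higher than mutant leaves.

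GASA2 (AT4G09610), the neighbour of GASA3 and known from siliques, had 1.67 and 2.88 cpm in guard cells with ABA, from 45 and 73 counts, against 0 counts with vehicle. WT leaves with ABA had 0.534 and 0.365 cpm, from 15 counts in each library, against 0 counts with vehicle. Mutant leaves had 0 counts throughout. The 2 neighbours were on and off in the same libraries. The level of GASA2 was at least 26.4-fold higher with ABA in guard cells and at least 5.71-fold higher in WT leaves, and in ABA-treated samples guard cells had 5.06 times the level of WT leaves. A count of 0 in 1 mutant ABA library allowed up to 0.0717 cpm and in the other up to 0.12 cpm, so GASA2 and GASA3 were not detectable there at this depth, which covers counting error only.

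GASA10 (AT5G59845) had 2.37 and 2.84 cpm in guard cells with ABA, from 64 and 72 counts, against 0.0306 and 0.107 cpm with vehicle, from 1 and 4 counts. Mutant leaves had 0.430 and 0.280 cpm with ABA, against 0.488 and 0.336 cpm with vehicle. WT leaves had 0.498 and 0.729 cpm with ABA, against 0.222 and 0.148 cpm with vehicle. Mutant libraries of both treatments overlapped, and in guard cells and WT leaves the ABA libraries lay above the vehicle ones. The log2 fold change was 5.12 ± 0.44 in guard cells, -0.16 ± 0.43 in mutant leaves, where it was not called, and 1.75 ± 0.43 in WT leaves. The WT leaf call ended without the second ABA library, at 1.42. In mutant leaves the sign changed without the first vehicle library, at 0.15, or without the second ABA library, at 0.06.

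GASA1 (AT1G75750), a gibberellin-induced member, had 371.3 and 320.0 cpm in guard cells with ABA, against 320.9 and 285.9 cpm in guard cells with vehicle, and these libraries overlapped. Mutant leaves had 207.5 and 215.4 cpm with ABA, against 134.2 and 101.2 cpm with vehicle. WT leaves had 52.5 and 54.2 cpm with ABA, against 177.1 and 128.6 cpm with vehicle. GASA1 was therefore higher with ABA in mutant leaves and lower with ABA in WT leaves, without overlap in either. The log2 fold change was 0.19 ± 0.15 in guard cells, where it was not called, 0.84 ± 0.16 in mutant leaves and -1.52 ± 0.16 in WT leaves. With total counts as the scaling, the guard cell value changed sign, to -0.11.

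GASA14 (AT5G14920), which has a long proline-rich stretch ahead of its GASA domain and is known from leaf expansion and stress tolerance, had 30.7 and 32.8 cpm in guard cells with ABA, against 74.5 and 76.4 cpm in guard cells with vehicle. Mutant leaves had 188.0 and 147.1 cpm with ABA, against 149.9 and 137.2 cpm with vehicle, and these overlapped. WT leaves had 27.0 and 22.8 cpm with ABA, against 94.3 and 76.1 cpm with vehicle. Levels with ABA were 6.72 times as high in mutant leaves as in WT leaves. The log2 fold change was -1.25 ± 0.14 in guard cells, 0.22 ± 0.13 in mutant leaves, where it was not called, and -1.78 ± 0.14 in WT leaves.

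GASA5 (AT3G02885), known as an inhibitor of gibberellin-driven flowering, had 3 and 5 counts in guard cells with ABA, against 1 count in each guard cell library with vehicle. It had 0 counts in all mutant libraries, 1 and 18 counts in WT leaves with ABA, and 1 count in each WT leaf library with vehicle. A single ABA-treated WT leaf library held most of its reads, and no fold is given.

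**Figure D1:**
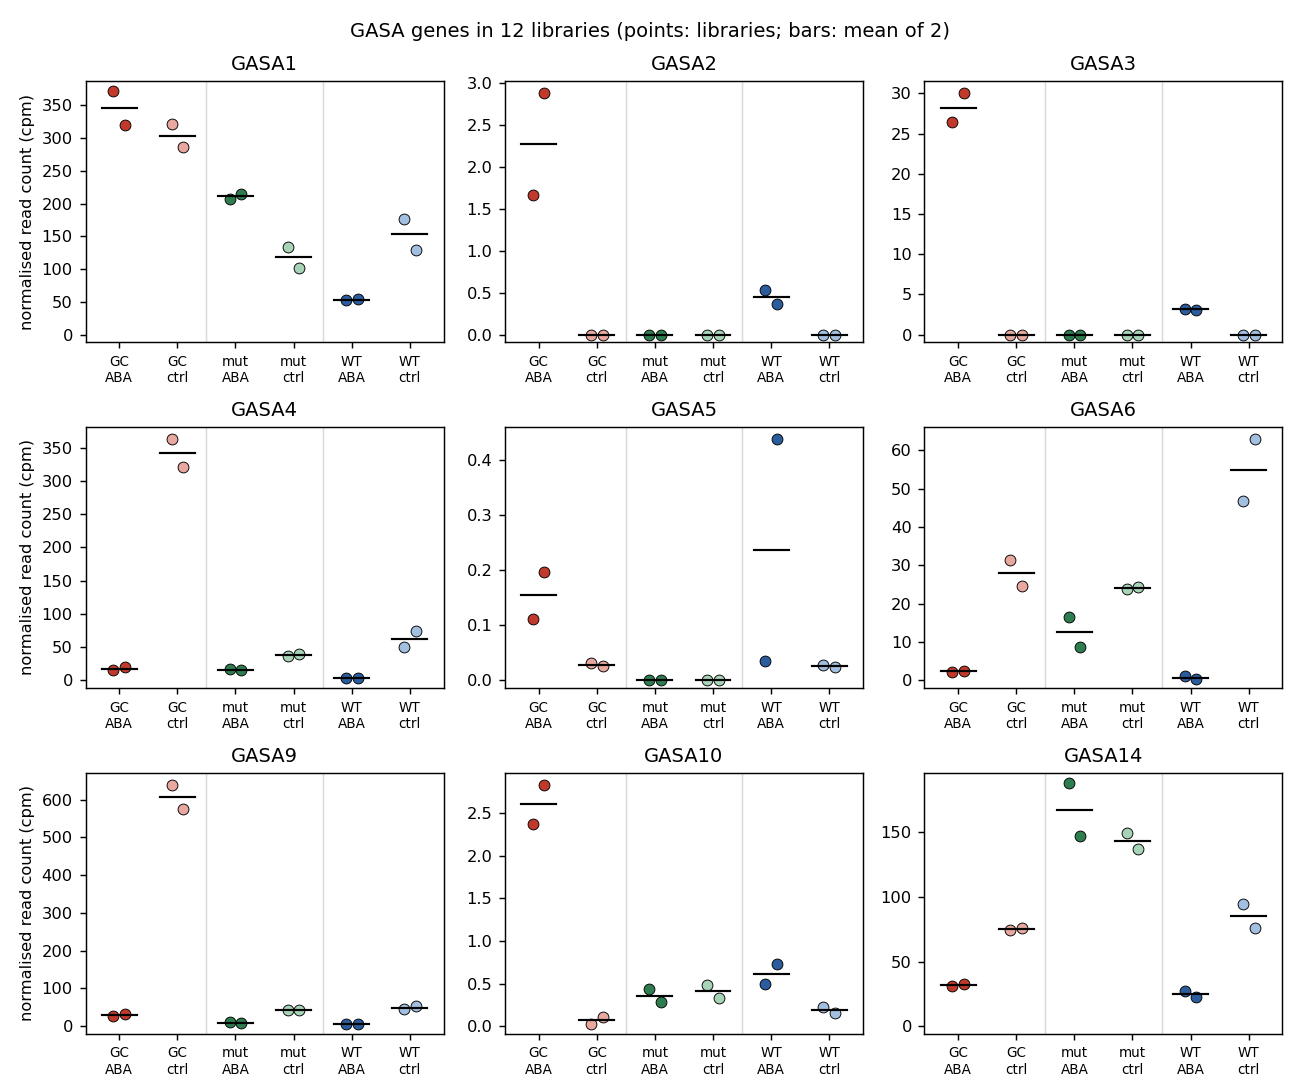
Level of each GASA gene in every library, as cpm on a linear axis of its own, with 1 point per library, a bar at the mean of each group and ABA left of vehicle (ctrl) for guard cells (GC), mutant leaves (mut) and WT leaves. GASA9 reaches 640.2 cpm in untreated guard cells, and GASA3 lies at 0 outside ABA-treated guard cells and ABA-treated WT leaves.

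**Figure D2:**
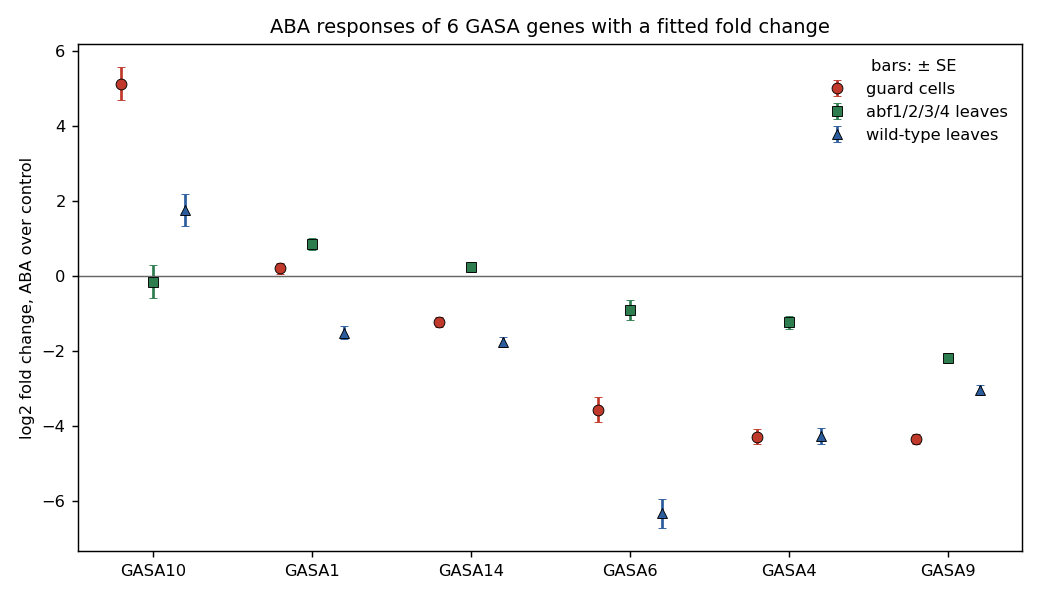
Log2 fold change, ABA over vehicle, for the 6 GASA genes with a fitted value in guard cells (circles), mutant leaves (squares) and WT leaves (triangles), with bars of ± SE. GASA6 spans -6.34 in WT leaves to -0.91 in mutant leaves, and GASA1 is above 0 in mutant leaves and below 0 in WT leaves.

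The response in guard cells minus that in WT leaves was higher for GASA1, by 1.71 ± 0.22 on the log2 scale, for GASA6, by 2.76 ± 0.58, and for GASA10, by 3.37 ± 0.72. It was lower for GASA9, at -1.31 ± 0.17. GASA14, at 0.53 ± 0.19, and GASA4, at -0.01 ± 0.31, were not called, and GASA2 and GASA3 had no fitted value. Thus 3 members were called higher and 1 lower, against 15.0% of all loci called, 9.87% higher and 5.18% lower. The GASA10 difference was not called with DESeq2, at 3.37, or without the first untreated WT leaf library, at 3.07, and the GASA6 difference was not called without the second ABA-treated WT leaf library, at 2.098.

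The response in mutant leaves minus that in WT leaves was higher for GASA6, by 5.43 ± 0.49, for GASA4, by 3.04 ± 0.28, for GASA1, by 2.36 ± 0.22, for GASA14, by 2.00 ± 0.19, and for GASA9, by 0.85 ± 0.18. It was lower for GASA10, at -1.91 ± 0.61. These were 5 members called higher and 1 lower, against 35.1% of all loci called, 20.1% higher and 15.1% lower. The GASA10 difference was not called with DESeq2, at -2.01, nor without any 1 of 4 libraries. These were the second untreated WT leaf library (-1.64), the second ABA-treated WT leaf library (-1.58), the first untreated mutant library (-1.61) and the second ABA-treated mutant library (-1.69). Every member that was lower with ABA in WT leaves had a value in mutant leaves closer to 0 or above it. Both differences share the WT leaf libraries, and both were built from responses that the choice of members used, so the values are a description.

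The vehicle libraries set the baseline of the ABA responses by which the members were chosen, so comparisons between untreated groups are not independent of that choice and are given as values with SE and calls, with no p. GASA9 was higher in guard cells than in WT leaves with vehicle, by 3.63 ± 0.12 on the log2 scale. GASA4 was higher by 2.45 ± 0.17 and GASA1 by 0.99 ± 0.16. GASA6 was lower, at -0.97 ± 0.25, in both guard cell libraries against both WT leaf libraries. The GASA6 call ended without the second guard cell library, at -0.82, or without the second WT leaf library, at -0.75. GASA10, at -1.32 ± 0.65, was not called, with an unadjusted 95% interval of -2.76 to 0.11. GASA14, at -0.18 ± 0.13, was not called either, with an interval of -0.46 to 0.11, and with total counts as the scaling its value was 0.21. The 3 called higher and 1 lower stood against 62.8% of all loci called, 30.2% higher and 32.6% lower.

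Marker lists of leaf cell types differed between untreated guard cell preparations and WT leaves. All 7 guard cell markers were higher than in WT leaves, with a median log2 fold change of 3.27, and their summed level was 672.2 and 679.0 cpm in guard cells, against 64.6 and 78.0 cpm in WT leaves. All 5 vascular markers were higher as well, with a median log2 fold change of 2.61. Their sum was 5472 and 5327 cpm in guard cells, against 796.5 and 792.7 cpm in WT leaves. Most of the guard cell sum was SUC2 and AHA3, at means of 2591 and 2629 cpm. On the log2 scale SUC2 (2.85), AHA3 (2.77) and APL (2.61) differed more than IRX3 (0.74) and ATHB8 (0.68). The 5 epidermal markers summed to 1522 and 1392 cpm in guard cells, against 646.1 and 630.6 cpm in WT leaves. Of these 5, CER6 and FDH were higher, ATML1 was lower and PDF1 and PDF2 were not called. All 6 mesophyll markers were lower, with a median log2 fold change of -1.91. No defining marker was at 0 in any group. With ABA the guard cell markers summed to 450.2 and 428.8 cpm in guard cells, where 2 of the 7 rose and 5 fell, with a median log2 change of -1.19. MYB60 fell, at -4.32 ± 0.10, as did FAMA, at -3.83 ± 0.15, and HT1, at -3.15 ± 0.09, while KAT1 rose by 0.89 ± 0.17 and ALMT12 by 0.96 ± 0.12. SLAC1, at -1.19 ± 0.11, and KAT2, at -0.71 ± 0.14, fell less. These marker changes, from -4.32 to 0.96, stand beside those of -4.36 for GASA9 and -4.30 for GASA4 in the same libraries. The vascular markers summed to 8118 and 8027 cpm with ABA, again mostly SUC2 and AHA3, with 3 of 5 higher and 2 lower. The part of these cell types in the GASA levels was not tested, and fewer cells of a type and less RNA per cell cannot be told apart in bulk samples.

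In untreated mutant leaves GASA14 was higher than in WT leaves, by 0.75 ± 0.13 on the log2 scale. GASA6 was lower, at -1.18 ± 0.26, and so was GASA4, at -0.70 ± 0.17, each in both libraries against both. Without the second WT leaf library neither was called, at -0.95 for GASA6 and -0.39 for GASA4, and GASA4 was not called in a fit of the compared libraries alone, at -0.67. GASA1, at -0.38 ± 0.16, was not called, with an unadjusted 95% interval of -0.72 to -0.03, and was called without the second WT leaf library, at -0.59, or without the first mutant library, at -0.60. GASA9, at -0.21 ± 0.11, was not called, with an interval of -0.46 to 0.04, nor was GASA10, at 1.16 ± 0.48, with an interval of 0.10 to 2.21. The 1 called higher and 2 called lower stood against 26.5% of all loci called, 12.1% higher and 14.4% lower. Without ABA, GASA14 was called higher in the mutant in the main fit, and GASA4 and GASA6 were called lower, though not in every fit. These calls too share the vehicle libraries behind the choice of members.

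**Figure D3:**
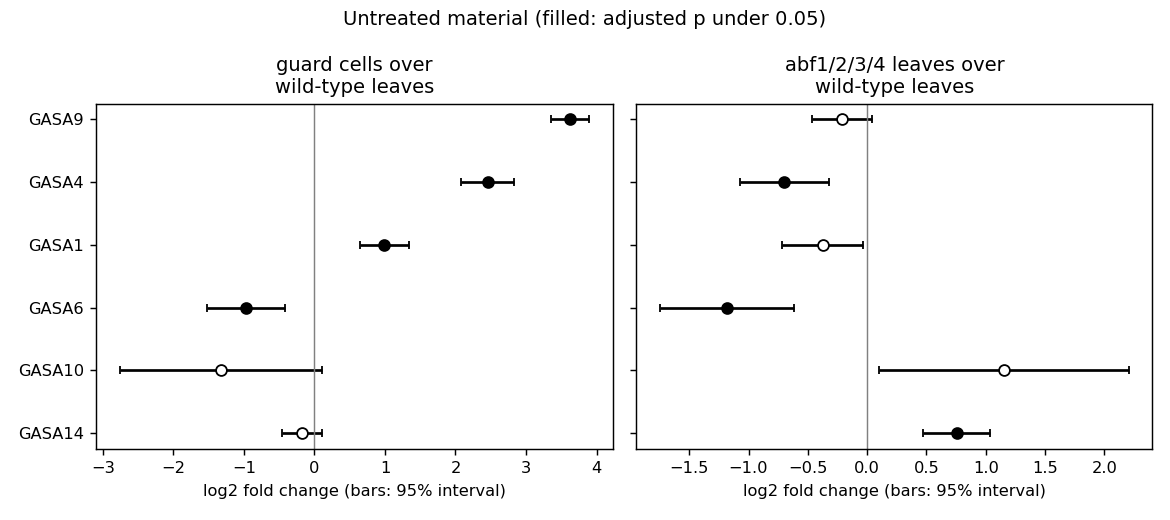
Log2 fold change between untreated groups for each GASA gene with a fitted value, guard cells against WT leaves and mutant leaves against WT leaves, with bars of the 95% interval, filled points where the adjusted p was under 0.05 and a separate scale in each panel. GASA9 stands at 3.63 and GASA4 at 2.45 in guard cells, and GASA14 at 0.75 in mutant leaves.

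Per length, as cpm per kilobase of annotated exon, the 9 genes summed to 605.3 and 558.3 in guard cells with ABA, against 1697 and 1516 in guard cells with vehicle. Mutant leaves held 415.8 and 393.6 with ABA, against 371.9 and 324.5 with vehicle, and WT leaves held 102.5 and 100.2 with ABA, against 442.4 and 420.4 with vehicle. The summed level was thus lower with ABA in guard cells and WT leaves, without overlap in either. In mutant leaves it was somewhat higher with ABA, at a mean of 404.7 against 348.2, also without overlap. The sum was taken at the main scaling only. Total counts as the scaling moved the median of all loci by -0.153 for ABA in mutant leaves, so the small mutant rise may depend on scaling. The make-up of the sum shifted as well. GASA1 made up 78.1% of it in guard cells with ABA, against 24.9% with vehicle, while GASA9 made up 6.69% with ABA, against 49.5% with vehicle. GASA3, absent with vehicle, was 7.61% of the sum in guard cells with ABA. In WT leaves GASA1 made up 69.2% with ABA, against 46.5% with vehicle, and in mutant leaves 68.8% with ABA, against 44.3% with vehicle.

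**Figure D4:**
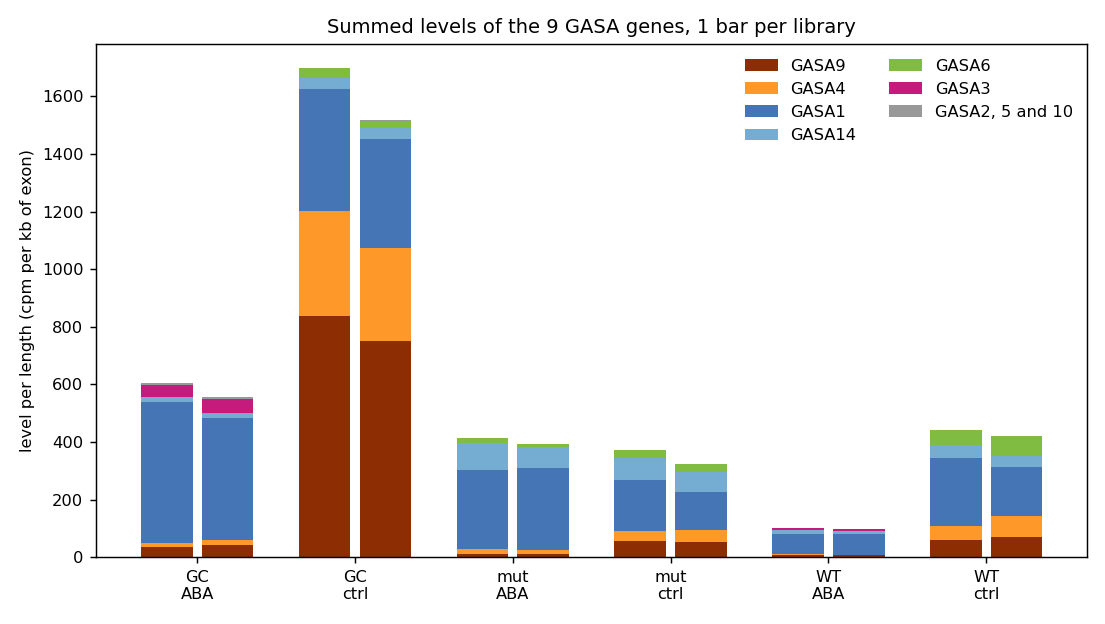
Summed level of the 9 GASA genes per library, in cpm per kilobase of exon, stacked by gene from 0 and with 1 bar per library, with ABA left of vehicle in each tissue. The bars of untreated guard cells reach 1697 and 1516, mostly GASA9, GASA1 and GASA4, and those of ABA-treated WT leaves stand at 102.5 and 100.2.

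The order of mean levels across groups differed by gene. GASA1 was highest in ABA-treated guard cells, at 346 cpm, next to untreated guard cells, which did not differ beyond their spread, and lowest in ABA-treated WT leaves, at 53.3 cpm. GASA4 and GASA9 shared an order, from untreated guard cells over untreated WT leaves, untreated mutant leaves, ABA-treated guard cells and ABA-treated mutant leaves to ABA-treated WT leaves. GASA6 was highest in untreated WT leaves, at 54.9 cpm, and GASA14 in ABA-treated mutant leaves, at 168 cpm, which overlapped with untreated mutant leaves. Over the 12 libraries, which share treatments and tissues, Pearson's r of log2 cpm was 0.995 for GASA2 with GASA3, 0.953 for GASA4 with GASA9 and -0.855 for GASA3 with GASA14. The members were chosen for their directions with ABA, so the sign of r between them is no test. GASA2 and GASA3 had 0 counts outside ABA-treated guard cells and ABA-treated WT leaves, so their r values largely repeat that on and off pattern. Among 6960 loci with a symbol and a mean of at least 5 cpm, the loci most like GASA9 were PSY1R (r = 0.985) and SERK2 (r = 0.972). Those most like GASA3 were SPS2F (0.990) and FBW2 (0.987), and those most like GASA4 were THY-1 (0.988) and MYB28 (0.984). GASA6 was most like PRMT4A (0.985) and sks3 (0.983), GASA14 most like DET1 (0.984) and RLP51 (0.974), and GASA1 most like TRM20 (0.967) and BAT5 (0.958). GASA2 was most like SPS2F (0.983) and FBW2 (0.983), and GASA10 most like SK20 (0.956) and SIP1 (0.933).

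Of 6 other GASA family loci, only GASA7 passed the filter on low counts. It had 0.778 and 1.42 cpm in guard cells with ABA, against 0.552 and 0.747 cpm with vehicle, and 4.04 and 3.24 cpm in mutant leaves with ABA, against 2.58 and 1.68 cpm with vehicle. WT leaves had 1.64 and 1.53 cpm with ABA, against 3.11 and 2.103 cpm with vehicle. Without treatment GASA7 was lower in guard cells than in WT leaves, at -1.98 ± 0.33 (edgeR adjusted p = 0.0003358). Its ABA response was not called in any of the 3 tissues, but that of mutant leaves minus WT leaves was called, at 1.497 ± 0.41 (edgeR adjusted p = 0.01578). GASA8, GASA11 and GASA12 had 0 counts in every library, GASA13 had 0 to 8 counts per library, and GASA15 had 1 count over all libraries.

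The gibberellin pathway around the family includes GA20OX and GA3OX enzymes, which make active gibberellin, GA2OX enzymes, which inactivate it, GID1 receptors, the DELLA repressors and SLY1, the F-box protein through which DELLA repressors are degraded. Of 21 such loci, 18 were tested. With ABA, 8 rose and 5 fell in guard cells, where 29.0% of all loci were higher and 28.5% lower. In mutant leaves 6 rose and 2 fell, beside 18.9% and 15.5% of all loci, and in WT leaves 9 rose and 5 fell, beside 27.5% and 33.7%. The median log2 change was 0.46 in guard cells, 0.07 in mutant leaves and 0.30 in WT leaves, beside the medians of all loci given above. GA2OX1 rose by 4.16 ± 0.67 in guard cells (edgeR adjusted p = 0.0002974) and by 4.54 ± 0.50 in WT leaves (edgeR adjusted p = 1.434e-05). It had 35 counts in each guard cell library with ABA, against 1 and 4 counts with vehicle. In WT leaves it had 153 and 89 counts with ABA, against 6 in each library with vehicle. GA3OX2 was at least 13.1-fold lower with ABA in guard cells and at least 3.61-fold lower in WT leaves. In mutant leaves GA20OX3 rose by 1.86 ± 0.51 (edgeR adjusted p = 0.01839) and GA2OX8 fell, at -2.12 ± 0.50 (edgeR adjusted p = 0.007504). There GA20OX3 had 27 and 21 counts with ABA, against 8 and 3 with vehicle, and GA2OX8 had 3 and 5, against 14 and 16. The changes of GA2OX1, GA20OX3 and GA2OX8 thus rest on few counts and are limited by depth.

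Between responses, 2 of these loci were called higher in guard cells than in WT leaves, GA3OX1 at 2.45 ± 0.26 (edgeR adjusted p = 0.0001893) and the DELLA gene RGL1, named after its values were seen, and none lower, beside 9.87% of all loci higher and 5.18% lower. In mutant leaves minus WT leaves, 5 were higher and 7 lower, beside 20.1% and 15.1% of all loci. GA20OX1 was higher, at 4.02 ± 0.39 (edgeR adjusted p = 2.618e-05), while 2 loci with larger fitted values had 0 counts in ABA-treated WT leaves and are given no value. GA20OX1 itself had 9 and 8 counts in ABA-treated WT leaves. GA2OX8 was lower, at -3.49 ± 0.60 (edgeR adjusted p = 0.001126), a value that includes its few counts in mutant leaves given above. Without treatment, 4 were higher and 7 lower in guard cells than in WT leaves, a share close to the 62.8% of all loci called, among them GA3OX2 at 2.19 ± 0.34 (edgeR adjusted p = 0.0002544) and GA20OX1 at -1.89 ± 0.24 (edgeR adjusted p = 4.729e-05). In untreated mutant leaves, 1 was higher than in WT leaves, GA2OX2 at 0.99 ± 0.20 (edgeR adjusted p = 0.005298), and 2 were lower, GAI, named after its values were seen, and RGA at -0.86 ± 0.08 (edgeR adjusted p = 0.0001515), both DELLA genes, beside 12.1% of all loci higher and 14.4% lower.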

How the data were processed

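Messenger RNA was sequenced in 12 libraries of 6 groups. The deposited values are raw read counts per locus with 1 column per library, as whole numbers and unequal totals show. The submitters' processing notes name Trim Galore 0.6.5, featureCounts, DESeq2 1.26.0 and the TAIR10 build. The aligner and the use of strand are not given in the sources used here. Sequences and gene models came from the RefSeq annotation of TAIR10.1, and no coordinate was converted.

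Loci were filtered with edgeR's filterByExpr (minimum 10 counts) and scaled with TMM factors. All libraries entered 1 quasi-likelihood model with a mean per group, with no term for replicates and 6 residual degrees of freedom, and p-values were adjusted by Benjamini-Hochberg over 22341 loci within each contrast (R 4.3.3, edgeR 4.0.16, limma 3.58.1, DESeq2 1.42.0, Python 3.11.15). The common biological coefficient of variation was 8.98%. The SE was taken from the size of the log2 change over the root of its F statistic, and the steps were tested on simulated data. Where both libraries of a group had 3 counts or fewer, a fold is a bound against 3 counts per library. The label of biological replicate is the submitters', and p-values measure the spread between these libraries. Replicate libraries differed beyond sampling noise, with chi-square per degree of freedom of 4.704 or more.

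All 9 members, the other GASA loci past the filter, the ABF genes, the called gibberellin loci of largest change per direction and the 2 loci with the highest r per member were to be named. The members and lists were chosen with earlier results of these data known. Tests of the members between untreated groups were planned, but they share the vehicle libraries with the ABA responses behind that choice, so no p is printed for them. Alternatives were other scaling, filters, thresholds, DESeq2, fewer libraries, a replicate block and leaving out each library.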

Additional observations from a re-analysis of the deposited data

Results flagged for a closer look

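Differences between responses to ABA are listed here where the difference itself was called in edgeR's fit, as values with no explanation. Guard cells minus WT leaves gave 3.37 for GASA10, 2.76 for GASA6, 1.71 for GASA1 and -1.31 for GASA9 on the log2 scale. Mutant leaves minus WT leaves gave 5.43 for GASA6, 3.04 for GASA4, 2.36 for GASA1, 2.00 for GASA14, 0.85 for GASA9 and -1.91 for GASA10. As given above, both GASA10 differences and the GASA6 difference of guard cells minus WT leaves were not called in every alternative. Part of the GASA6 exons also lies in AT1G74675. GASA1 was the only member with a called response in opposite directions in mutant and WT leaves.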

How the results depend on the processing

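Counts of called members stayed within 1.5 times the main count in 102 of 106 comparisons with an alternative. Many of these concern ABA responses, or differences built from them, which the choice of members used. GASA2 and GASA3 count as called in the guard cell and WT leaf responses. Steady counts there describe dependence on processing and are no support for the responses. Where calls also needed a log2 change of 1 or more in size, 2 members were called for ABA in mutant leaves, 2 for untreated guard cells against WT leaves and 1 for untreated mutant leaves against WT leaves, in place of 4, 4 and 3. At an adjusted p under 0.01, 2 were called for the response of guard cells minus WT leaves, in place of 4. For single members, 638 values kept direction and side of the threshold, 29 lost a call, 7 gained one and 8 changed sign.

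Total counts as the scaling moved the median of all loci by -0.30 for ABA in guard cells and by 0.38 for untreated guard cells against WT leaves, and gave GASA1 -0.11 in the first and GASA14 0.21 in the second. The uncalled GASA4 difference of guard cells minus WT leaves ran from -0.32 to 0.24 over fits that left out 1 library, with 0.08, 0.15 and 0.21 among them, and the uncalled GASA10 value in mutant leaves ran from -0.56 to 0.15, with 0.06 among them. Their cause was not tested. In the counts that follow, the 9 for WT leaves includes GASA5, which did not pass the main filter. Its ABA-treated WT leaf libraries held 1 and 18 counts, so its reads there come mostly from 1 library. Leaving out each library in turn gave 7 members called for ABA in guard cells, 3 to 4 in mutant leaves, 7 to 9 in WT leaves, 3 to 4 and 2 to 4 for the untreated guard cell and mutant comparisons, 3 to 4 for guard cells minus WT leaves and 5 to 6 for mutant minus WT leaves.

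Differences between the replicates of a group had little in common across groups: of 15 correlations between groups, 1 was above 0.1 and the median was 0.021. With 1 such difference per group, whether equal replicate numbers share plants or a day cannot be told. With the replicate block, 5 members were called for guard cells minus WT leaves, GASA14 (0.52) being added, and 4 for untreated mutant leaves, GASA1 (-0.37) being added; the other counts were as in the main results. GASA2, GASA3, GASA5 and GASA10 are limited by depth, and so is GASA6 in ABA-treated WT leaves, with 30 and 16 counts.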
